A study of Mus musculus with 24 samples.

Results

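The MEIS and PBX family genes Meis1, Meis2, Meis3, Pbx2, Pbx3, Pbx4 and Pknox1 were taken by symbol from a table of read counts, as 7 of its 24046 genes. RNA came from the marrow of moribund mice that carried transplanted leukaemia cells, in 24 libraries that fall into 8 groups of 3. All 24 share the MLL-AF9 fusion oncogene and a Cre transgene. In the VavCre Arid1b set the controls were Arid1b +/+ VavCre+ and the floxed libraries Arid1b fl/fl VavCre+, and in the VavCre Arid2 set they were Arid2 +/+ VavCre+ and Arid2 fl/fl VavCre+. The Vav promoter drives Cre throughout the blood lineage. In both MxCre sets, control and floxed recipients alike received pIpC, an RNA mimic that raises interferon and so switches Mx-driven Cre on, given 3 times (12.5 µg per g each) starting on day 21 of the transplant. For these sets the titles disagree with the cell descriptions: libraries titled A2 carry the description Arid1b +/+ MxCre+ or Arid1b fl/fl MxCre+, while for those titled A1b it reads Arid2 +/+ MxCre+ or Arid2 fl/fl MxCre+. Both sets are therefore called by title, and which gene was deleted is left unstated. Titles of the VavCre Arid1b set and both MxCre sets also carry a mark for secondary, which those of the VavCre Arid2 set lack. Comparisons of VavCre Arid2 with another set thus cross this difference in titles, whose part was not tested. Arid1b and Arid2 each encode a subunit of a SWI/SNF chromatin remodeller. Whether libraries of a group came from separate primary leukaemias is not stated in the labels, and p-values then measure only the spread between these samples.

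MEIS and PBX proteins belong to the TALE class of homeodomain proteins, which carry a loop of 3 extra amino acids in the DNA-binding domain. A PBX protein binds DNA together with a HOX protein, and a MEIS protein, or its relative PREP1 encoded by Pknox1, joins PBX in the nucleus and stabilises the complex. In leukaemias with MLL fusions, HOXA9 and MEIS1 are known as drivers that act together, and PBX3 as the PBX partner most often tied to them.

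The loop is what the 7 genes have in common at the sequence level, and 5 stretches are printed to show how close the family members that the results turn on are to each other. Each runs for 90 bases of the coding strand, 5′ to 3′, from the GENCODE M21 transcripts of GRCm38 (mm10), with the bases of the 3 loop codons in capitals.
Pbx3: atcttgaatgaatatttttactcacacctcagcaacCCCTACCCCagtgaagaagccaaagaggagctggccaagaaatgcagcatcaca
Pbx2: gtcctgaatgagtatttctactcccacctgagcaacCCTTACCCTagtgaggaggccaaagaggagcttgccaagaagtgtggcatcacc
Pbx4: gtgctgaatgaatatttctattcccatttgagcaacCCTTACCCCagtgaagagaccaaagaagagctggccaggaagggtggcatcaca
Meis1: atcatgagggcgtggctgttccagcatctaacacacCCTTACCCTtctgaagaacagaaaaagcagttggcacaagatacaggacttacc
Pknox1: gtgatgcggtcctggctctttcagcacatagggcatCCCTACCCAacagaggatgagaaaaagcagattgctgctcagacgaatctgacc
Over this stretch Pbx3 shared 83.3% of its bases with Pbx2 and 80.0% with Pbx4, and Pbx2 shared 85.6% with Pbx4. Meis1 shared 85.6% with Meis2, 81.1% with Meis3, 63.3% with Pknox1 and 54.4% with Pbx3. Meis1 and Pbx2 thus have the same loop codons inside stretches that differ, and Pbx2 and Pbx3 have different loop codons inside stretches that are close. In every member these codons encode proline, tyrosine and proline, the motif by which the stretches were located, so they differ in bases only.

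On GRCm38, Pbx3 lies on chromosome 2 (34171457 to 34373142, minus strand) with 6109 bases of exon, Pbx2 on chromosome 17 (34591266 to 34597400, plus strand) with 3640, and Pbx4 on chromosome 8 (69832491 to 69872292, plus strand) with 2217. Meis1 lies on chromosome 11 (18879817 to 19018985, minus strand) with 10532 bases of exon, and Pknox1 on chromosome 17 (31564734 to 31607693, plus strand) with 6933. Meis2 is on chromosome 2 (115863064 to 116065839, minus strand) with 12043 bases and Meis3 on chromosome 7 (16175090 to 16186504, plus strand) with 3173. Some members share their place with another gene, and the strand setting of the counting is not given in the sources used here. Pbx2 shares exon bases with Gpsm3 on the same strand, and Meis1 and Pknox1 each have an exon covered by an antisense RNA (Gm16140 and AC166172.4). Meis1 also shares exon bases with Gm37818 on its own strand. The counts of these 3 are uncertain to that extent, while the antisense gene C79798 within Pbx3 covers none of its exons.

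Totals ran from 12069153 to 38315410 counts per library. Levels are CPM, the counts scaled to a fixed library total, adjusted by the trimmed mean of M values. All 10 markers of myeloid leukaemia cells had counts in every group, with sums of 3612 to 20463 CPM over the libraries. Gene totals also count transcripts that lack a deleted exon, so the targeted genes check no deletion here. Arid1b was at a log2 fold change of -0.65 (edgeR adjusted p = 0.407) for VavCre Arid1b, and Arid2 at -0.22 (0.802) for VavCre Arid2. Libraries with Kdm5d of the Y chromosome above 10 CPM are called Y-positive. In VavCre Arid1b these are the 3 controls and the Y-negative ones the 3 floxed, with the reverse in the MxCre set titled A2, so Y status and genotype cannot be told apart in either. The mean Pearson r of a library with the others of its group, across the 14099 genes tested, ran from 0.919 to 0.983. It was lowest in its group for control 3 of VavCre Arid1b (0.937 against 0.958 and 0.961) and floxed 3 of the MxCre set titled A2 (0.922 against 0.944 and 0.953), and also for control 2 of the MxCre set titled A1b (0.932 against 0.960 and 0.963), without which the Pbx3 change of that set was -3.70 (edgeR adjusted p = 0.0903). In floxed 2 of the set titled A1b (0.930), levels were lower for genes with longer exons, with a Spearman correlation across genes of -0.42 against -0.17 to 0.21 in the 23 other libraries, while floxed 1 of that set had the lowest r of all. Results that rest on these libraries are given with and without them.

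Divided by kb of exon, which allows genes to be compared, the median CPM over 24 libraries was 23.1 for Pbx2, 14.0 for Pbx3, 11.2 for Pknox1, 9.19 for Meis1 and 2.39 for Pbx4, against 0.177 for Meis3 and 0.00471 for Meis2. By these medians 4 members were within a like range, Pbx4 was below them, and Meis3 and Meis2 were close to absent. Pbx3 departed from its median in single groups. In the floxed group of the MxCre set titled A1b it averaged 1.80 CPM per kb beside 1.93 for Pbx4 and 23.9 for Pbx2. It was above Pbx4 in 21 of 24 libraries, floxed 1 of that group among them (2.34 against 0.673). The exceptions were floxed 2 and 3 of that group (1.41 and 1.67 against 2.23 and 2.89). Control 2 of the MxCre set titled A2 was the remaining exception (4.68 against 4.78). Neighbours in the order of medians kept it in 18 of 24 libraries for Pbx2 over Pbx3 and 13 for Pbx3 over Pknox1. For Pknox1 over Meis1 it was 19, so these 4 are not cleanly ordered. Meis1 was above Pbx4 in 24 of 24 libraries, Pbx4 above Meis3 in 23 and Meis3 above Meis2 in 24.

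Among members that were not close to absent, Pbx3 stood apart in how far it varied. Its level ran over 31.2-fold, from 8.60 to 268 CPM, whereas Pbx2 ran over 1.71-fold (69.0 to 118) and Pknox1 over 1.94-fold (51.7 to 100). Meis1 ran over 4.79-fold (32.8 to 157) and Pbx4 over 7.38-fold (1.49 to 11.01). Meis3 also had a wide range, 0.0945 to 3.11 CPM, but with as few as 2 counts in a library. The SD of the 8 group means of Pbx3 was 1.46 on the log2 scale, against a median SD within groups of 0.35. Only 1.33% of the 14099 genes tested had a larger SD between group means, and 0.262% a larger ratio of the former to the latter. That ratio uses a median and so does not reflect the groups in which Pbx3 was widely spread. It ran from 17.2 to 201 CPM in floxed libraries of the MxCre set titled A2. Among controls it ran from 57.9 to 268 in VavCre Arid1b and from 18.2 to 73.9 in VavCre Arid2. The same SD between group means was 0.09 for Pbx2, 0.18 for Pknox1, 0.24 for Meis1, 0.40 for Meis3 and 0.50 for Pbx4, with a median of 0.25 over all genes tested.

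In the MxCre set titled A1b, Pbx3 was at 128, 110 and 160 CPM in controls 1, 2 and 3 and at 14.3, 8.60 and 10.2 in floxed 1, 2 and 3. The 3 floxed libraries hold the lowest Pbx3 levels of all 24, and the groups are far from overlapping. The raw counts behind them were 1654, 1972 and 2461 in the controls and 220, 99 and 119 in the floxed libraries, so the low level does not rest on a handful of reads. Means were 133 ± 25.2 CPM (SD, n = 3) against 11.01 ± 2.93, a log2 fold change of -3.59 ± 0.73 (SE) with a 95% interval of -5.12 to -2.05. By the edgeR quasi-likelihood test this change missed the threshold of 0.05 (edgeR adjusted p = 0.0667) and ranked 21 by p among 14099 genes. DESeq2 called it (adjusted p = 1.84e-05) and voom with sample weights did not (-3.63, adjusted p = 0.233). In all, 3 of 14 alternative settings called it. In a bulk sample, fewer cells that carry a transcript and less of it in each cell cannot be told apart.

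**Figure D1:**
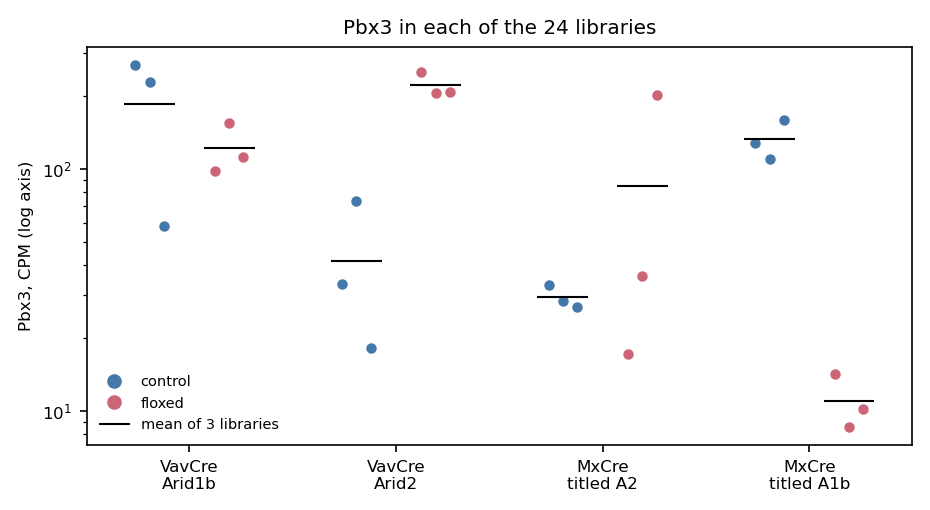
Pbx3 in each of the 24 libraries, in CPM on a log axis, with controls in blue, floxed libraries in red and the mean of each group of 3 as a line. The floxed libraries of the MxCre set titled A1b, at 8.60 to 14.3 CPM, lie below every other library. Floxed VavCre Arid2 libraries, at 205 to 251 CPM, lie above all 3 of their controls.

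Several measures of these 6 libraries stand beside that value. The set was the shallowest, at 12069153 to 17231014 counts a library. Without floxed 2, in which long genes lay low, the Pbx3 change was -3.44 (edgeR adjusted p = 0.181), close in size to the value with it. Y-positive libraries were controls 1 and 3 (Pbx3 at 128 and 160 CPM) and floxed 1 (14.3). Y-negative ones were control 2 (110) and floxed 2 and 3 (8.60 and 10.2). Floxed libraries thus lay below controls within each kind, with only 1 or 2 libraries a side. Once Y status entered the model, the Pbx3 change was -3.50 (edgeR adjusted p = 0.131). Leaving out floxed 1 brought the change past the threshold, at -3.82 (edgeR adjusted p = 0.0155). In that fit 1535 of the genes tested were called in this set, against 1 in the main fit, so the pass is not particular to Pbx3.

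In the VavCre Arid2 set Pbx3 lay on the other side. Controls 1, 2 and 3 were at 33.3, 73.9 and 18.2 CPM, and floxed 1, 2 and 3 at 251, 205 and 207. All 3 floxed libraries lie above all 3 controls, which themselves differ from each other over a wide range. The means of 41.8 ± 28.8 and 221 ± 26.0 CPM gave a log2 fold change of 2.40 ± 0.69 (SE; 95% interval 0.96 to 3.84), which also missed the threshold (edgeR adjusted p = 0.0812). DESeq2 (adjusted p = 0.00593) and voom with sample weights (0.000465) called it, as did edgeR fitted to the set alone (0.0441) or without control 3 of VavCre Arid1b, floxed 3 of the set titled A2 and floxed 2 of the set titled A1b (0.00704). The other 10 of 14 alternatives did not, among them the replicate numbers as a block (edgeR adjusted p = 0.194), a term for Y-positive libraries (0.135), no filter on low counts (0.123) and each omission of 1 library (0.0943 to 0.237).

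The other sets showed no separation for Pbx3. In the VavCre Arid1b set controls 1, 2 and 3 were at 268, 229 and 57.9 CPM and floxed 1, 3 and 4 at 97.6, 155 and 112. Control 3 is the outlying value here, below every floxed library, while controls 1 and 2 are above all of them. The log2 fold change was -0.60 (95% interval -1.98 to 0.77; edgeR adjusted p = 0.615) and -1.0 without control 3 (0.476). Controls of the MxCre set titled A2 were at 33.1, 28.6 and 26.8 CPM and the floxed libraries at 17.2, 36.2 and 201. Floxed 3 alone is high, and the log2 fold change of 1.52 (interval 0.12 to 2.93; edgeR adjusted p = 0.425) became -0.14 without it.

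Ordered by mean, Pbx3 was highest in the floxed VavCre Arid2 group (221 CPM), followed by the VavCre Arid1b controls (185 ± 112), the controls of the MxCre set titled A1b (133), the floxed VavCre Arid1b group (122 ± 30.01) and the floxed group of the MxCre set titled A2 (84.96 ± 101). The VavCre Arid2 controls (41.8), the controls of the MxCre set titled A2 (29.5 ± 3.27) and the floxed group of the MxCre set titled A1b (11.01) followed. Each group overlaps its neighbour in this order except for the last step, where 26.8 to 33.1 CPM stands above 8.60 to 14.3. Control groups were also compared with each other. Pbx3 was lower in VavCre Arid2 than in VavCre Arid1b controls by a log2 difference of -2.15 ± 0.68 (edgeR adjusted p = 0.222), and higher in MxCre controls titled A1b than in those titled A2 by 2.17 ± 0.68 (edgeR adjusted p = 0.767). Neither passed by edgeR, which called 0.0426% and 0% of all genes in these comparisons and 0 of the 6 members tested in either. Between the VavCre controls 2 members had an unadjusted p under 0.05 (Pbx3 and Pbx4, the latter at -1.58), DESeq2 called 1 and voom 2, where 12.5%, 2.38% and 20.9% of all genes did so. Between the MxCre controls the members numbered 1, 0 and 1, and the genes 817, 28 and 36 (5.79%, 0.199% and 0.255%).

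The change of Pbx3 differed between sets by a direct test. It was lower in the MxCre set titled A1b than in the VavCre Arid2 set by a log2 difference of -5.99 ± 1.00 (interval -8.09 to -3.89; edgeR adjusted p = 0.0162), in a comparison where 1.5% of all genes were called. Against the MxCre set titled A2 the difference was -5.11 ± 0.99 (interval -7.18 to -3.04; edgeR adjusted p = 0.0392), with 0.192% of genes called. The former held in 16 of 19 alternative settings and was lost with the replicate numbers as a block (edgeR adjusted p = 0.107), with a term for Y-positive libraries (0.0590) and without control 3 of the set titled A1b (0.0650). The latter held in only 5 of 19, and without floxed 3 of the set titled A2 it was -3.45 (edgeR adjusted p = 0.0573). Both differences combine a floxed group that was low with a control group that was high in the same set, and, as given above, control groups also lay apart. The former also compares a set titled as secondary with a set whose titles lack that mark.

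**Figure D2:**
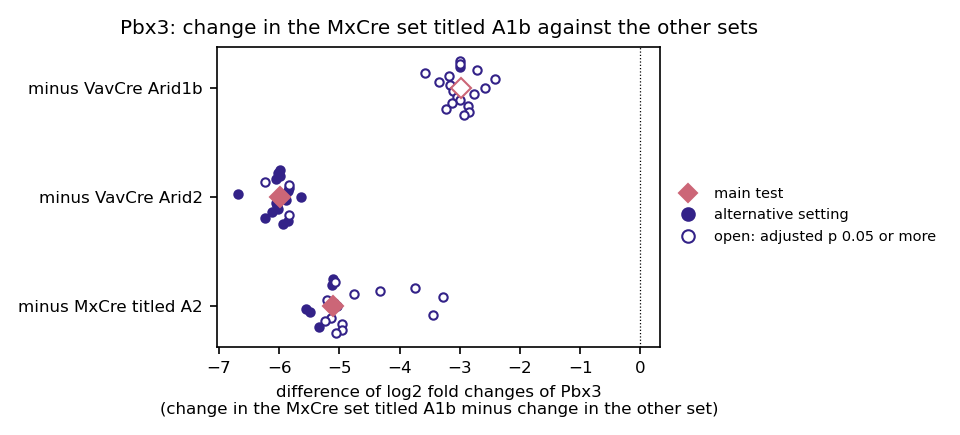
Difference between the log2 fold change of Pbx3 in the MxCre set titled A1b and that in each other set, for the edgeR test of the text (diamonds) and for the alternative settings (circles), with open symbols where the adjusted p was 0.05 or more. All values are below 0, and most circles are filled against the VavCre Arid2 set but open against the other sets.

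The remaining 4 differences did not pass by edgeR for Pbx3. They were -2.98 ± 0.95 for the MxCre set titled A1b against VavCre Arid1b (edgeR adjusted p = 0.118; 0.745% of genes called) and 3.01 ± 0.94 for VavCre Arid2 against VavCre Arid1b (0.237; 0.0142% called). For the MxCre set titled A2 they were 2.13 ± 0.94 against VavCre Arid1b (edgeR adjusted p = 0.163; 7.35% called) and -0.88 ± 0.93 against VavCre Arid2 (0.632; 0.489% called). Some alternatives called 3 of them. DESeq2 called the MxCre set titled A1b against VavCre Arid1b (adjusted p = 0.0242), as 1 of 19 settings. VavCre Arid2 against VavCre Arid1b was called in 3 of 19, by DESeq2 (adjusted p = 0.0474), by voom (0.000985) and without the 3 libraries named above (0.0187). The MxCre set titled A2 against VavCre Arid2 was called in 2 of 19, by voom (-2.29, adjusted p = 0.0126) and without those libraries (-2.55, 0.0181). For the other 5 members tested, 0 of 30 such differences passed by edgeR, by DESeq2, by voom or at an unadjusted p under 0.05.

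The makeup of PBX transcripts moved with Pbx3. As a share of the summed CPM per kb of Pbx2, Pbx3 and Pbx4, Pbx3 made up 46.1%, 47.0% and 44.5% in the controls of the MxCre set titled A1b and 9.68%, 4.83% and 5.63% in its floxed libraries. Pbx2 went from 49.5% ± 0.340 to 86.5% ± 1.69 of the sum (SD, n = 3), so it made up most of the sum there. In the VavCre Arid2 set Pbx3 made up 19.4%, 31.4% and 11.7% in controls and 58.9%, 56.7% and 61.2% in floxed libraries. The groups do not overlap in either set, and the shares of floxed libraries are tight in both. In the VavCre Arid1b set the mean share was 45.4% ± 13.4 in controls and 41.2% ± 7.11 in floxed libraries, and in the MxCre set titled A2 15.2% ± 3.41 and 27.8% ± 18.9. These shares are a description, with no test, and follow from the levels given above.

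**Figure D3:**
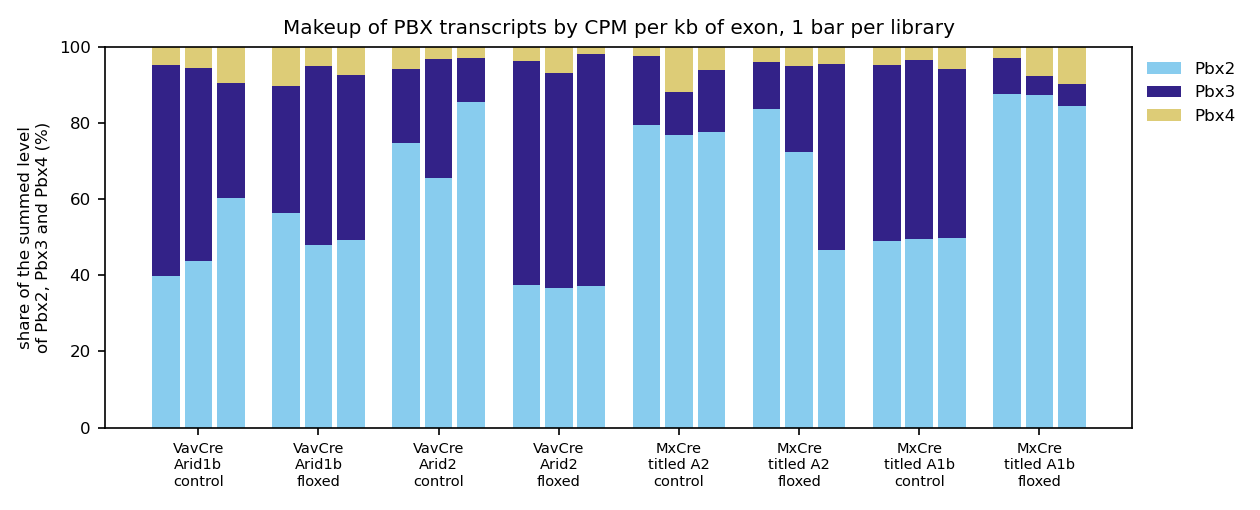
Share of Pbx2, Pbx3 and Pbx4 in their summed level (CPM per kb of exon, in %), with 1 bar per library in the 8 groups. The dark part, Pbx3, is 4.83% to 9.68% in the floxed libraries of the MxCre set titled A1b and 56.7% to 61.2% in those of the VavCre Arid2 set.

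Pbx2, the broadly expressed PBX gene, was the steadiest member. It ran from 69.0 to 118 CPM over all libraries, and its log2 fold changes were -0.17, 0.01, -0.13 and 0.02 in the VavCre Arid1b, VavCre Arid2, MxCre titled A2 and MxCre titled A1b sets (edgeR adjusted p = 0.697, 0.991, 0.893 and 0.968). Where Pbx3 had its lowest levels, in the MxCre set titled A1b, the interval of Pbx2 was -0.45 to 0.50. Among the alternatives, voom with sample weights called Pbx2 in VavCre Arid1b (-0.44, adjusted p = 0.0330). Pbx4, a less abundant PBX gene, was at 1.49 to 11.01 CPM and varied within groups as much as between them. Its largest fold change was in the VavCre Arid2 set, from 3.68, 2.69 and 1.56 CPM in the controls to 5.65, 8.83 and 2.11 in the floxed libraries. The groups overlap through floxed 3, and the log2 fold change of 1.06 spans 0 (-0.33 to 2.46; edgeR adjusted p = 0.397).

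Meis1, the HOXA9 partner that speeds leukaemia in mouse models, was present in every library, with group means of 79.3 to 124 CPM that all overlap their neighbours. In the VavCre Arid1b set controls 1, 2 and 3 were at 157, 109 and 107 CPM and floxed 1, 3 and 4 at 90.8, 90.4 and 91.2. The floxed libraries are all lower and nearly equal, but the log2 fold change of -0.45 had an interval of -1.28 to 0.37 and did not pass (edgeR adjusted p = 0.521). It was -0.06 in the VavCre Arid2 set (edgeR adjusted p = 0.953) and -0.28 in the MxCre set titled A2 (0.864), whose floxed 2 held the lowest level, 32.8 CPM. Within the MxCre set titled A1b, Meis1 was at 85.7, 91.4 and 104 CPM in controls and 131, 35.9 and 108 in floxed libraries. The groups overlap, with floxed 1 the highest and floxed 2 the lowest of the 6. The log2 fold change was -0.03 (interval -0.86 to 0.79; edgeR adjusted p = 0.972). Meis1 has the longest exons of the members tested, and floxed 2 is the library in which long genes lay lower. Without it the change was 0.35 (edgeR adjusted p = 0.751). In the set where Pbx3 was lowest, Meis1 thus showed no comparable difference.

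**Figure D4:**
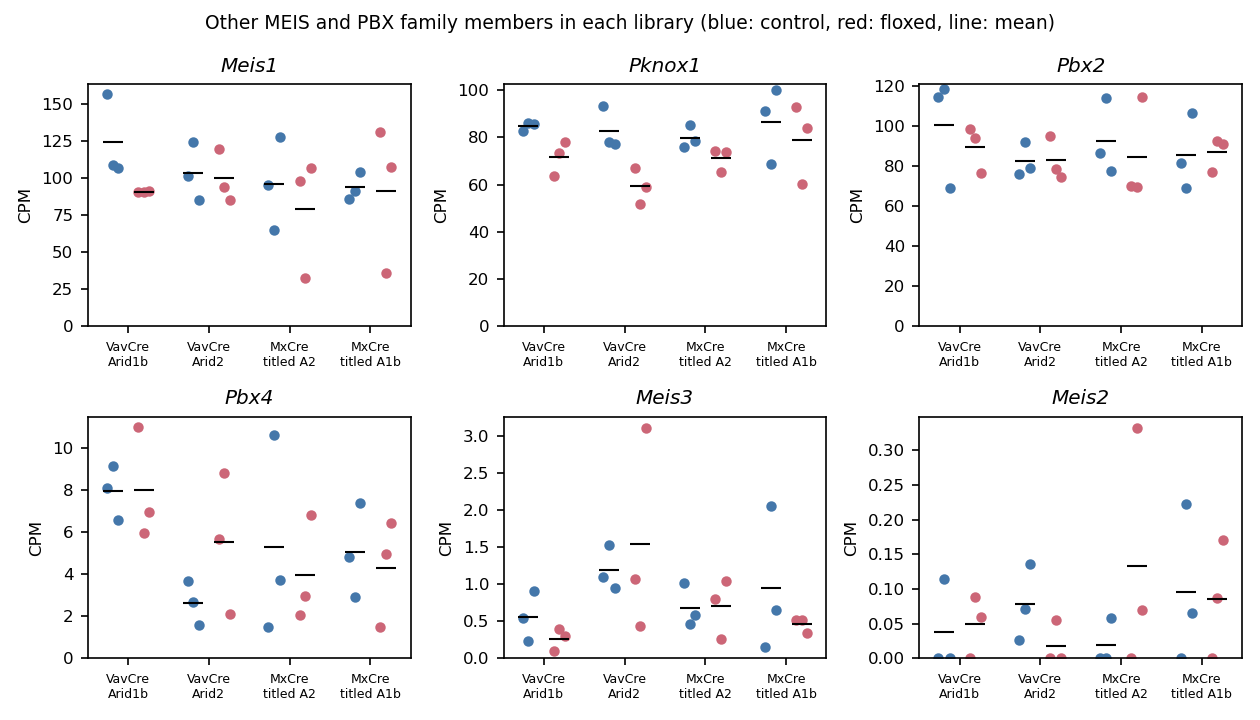
Meis1, Pknox1, Pbx2, Pbx4, Meis3 and Meis2 in each library, in CPM on linear axes from 0 with a scale of their own, with controls in blue, floxed libraries in red and group means as lines. Pknox1 shows all floxed libraries below all controls in 3 sets, and Meis1 shows 2 low libraries, at 32.8 and 35.9 CPM.

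Pknox1 encodes PREP1, which competes with MEIS1 for PBX. In the VavCre Arid2 set it was at 93.3, 78.1 and 77.4 CPM in controls 1, 2 and 3 and at 66.9, 51.7 and 59.1 in floxed 1, 2 and 3. Every floxed library is below every control, by a modest amount. The log2 fold change of -0.49 ± 0.16 (SE; interval -0.81 to -0.16) did not pass (edgeR adjusted p = 0.107), though DESeq2 (adjusted p = 0.0437) and voom with sample weights (0.00921) called it. Floxed libraries also lay below controls in VavCre Arid1b (82.6, 86.1 and 85.6 CPM against 63.8, 73.6 and 78.1; log2 fold change -0.24, edgeR adjusted p = 0.376) and in the MxCre set titled A2 (76.0, 85.2 and 78.4 against 74.5, 65.5 and 73.9; -0.16, 0.771). The groups overlap in the MxCre set titled A1b (91.2, 68.9 and 100 CPM against 92.9, 60.4 and 83.9; -0.13, edgeR adjusted p = 0.694).

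Meis3 was near the limit of detection, with 466 counts over the 24 libraries and 2 to 102 in each. Group means ran from 0.264 to 1.54 CPM, and the highest library, floxed 3 of the VavCre Arid2 set at 3.11 CPM, lay beside 1.07 and 0.439 in the same group. Its log2 fold changes were -1.07, 0.37, 0.00 and -1.06 in the order of sets above, with intervals that span 0 in each. Meis2 was not tested, as its 33 counts in all fell below the filter on low counts. It had no count in 10 libraries, and 9 of its counts were in a single library, floxed 2 of the set titled A2. The 10 counts of that group are 0.163 CPM (exact Poisson 95% interval 0.0780 to 0.299), against 1 count or 0.0168 CPM (0.000425 to 0.0936) in its controls, and these intervals cover counting error only.

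Over the 6 members tested, 0 were called by edgeR in each of the 4 sets, where 6.57% of all genes (VavCre Arid1b), 1.31% (VavCre Arid2), 0.0284% (MxCre titled A2) and 0.00709% (MxCre titled A1b) were called. At an unadjusted p under 0.05 there were 0 in VavCre Arid1b, 2 in VavCre Arid2 (Pbx3 higher and Pknox1 lower), 1 in the MxCre set titled A2 (Pbx3 higher) and 1 in the MxCre set titled A1b (Pbx3 lower). DESeq2 called 0, 2, 0 and 1 members in these sets, and voom with sample weights 1, 2, 0 and 0. Over all genes the shares in the same order of sets were 24%, 19.5%, 10.6% and 17.4% at an unadjusted p under 0.05, 12.9%, 7.77%, 1.39% and 3.39% by DESeq2, and 29.7%, 33.2%, 8.53% and 0.0851% by voom. The 2 of 6 members that voom called in VavCre Arid2 are thus the same share as over all genes. Groups did not overlap for 2, 2, 1 and 1 of the 6 members, against 32.4%, 36.1%, 15% and 14.1% of all genes. The median log2 fold change of the members was -0.35, 0.19, -0.15 and -0.18, beside -0.06, 0.00, 0.02 and 0.01 over all genes.

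**Figure D5:**
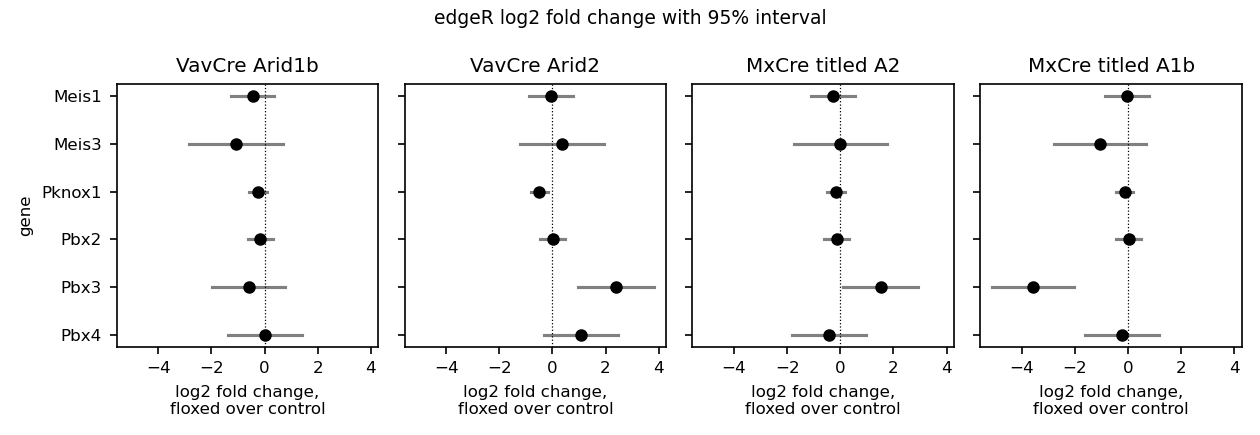
Log2 fold change of floxed over control with its 95% interval (edgeR) for the 6 members tested, with 1 panel per set. Pbx3 lies on either side of 0, from -3.59 in the MxCre set titled A1b to 2.40 in the VavCre Arid2 set, while the intervals of Meis1 and Pbx2 include 0 in all 4 panels.

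The members did not vary as a block. Across the 24 libraries, which share their groups of 3, Pearson's r of log2 CPM was 0.34 between Meis1 and Pbx3 (Spearman's rho 0.18), 0.34 between Pbx2 and Pbx3 (0.35), 0.60 between Pbx2 and Pbx4 (0.59) and -0.53 between Meis3 and Pbx4 (-0.51). The genes whose pattern was most like that of Pbx3 among the 11673 compared were Kcne3, a regulatory subunit of potassium channels (r = 0.85, rho 0.79), Smad5, a transducer of BMP signals (0.85, 0.82), and Col11a2, a collagen chain (0.83, 0.79). Kcne3 in the MxCre set titled A1b was at 22.9 ± 8.62 CPM in controls and 3.26 ± 2.69 in floxed libraries, and in the VavCre Arid2 set at 6.92 ± 3.89 and 27.8 ± 8.11. Most like Meis1 were Erbb2ip, which encodes the scaffold protein Erbin (r = 0.81, rho 0.83), Dock8, an activator of small GTPases (0.78, 0.58), and Cyld, a deubiquitinase (0.75, 0.41). Without the 2 libraries farthest from the median of the member, r stayed at 0.75 to 0.85 for the genes like Pbx3 but fell to 0.33 for Cyld, which rests on those libraries. These values are a description of genes picked for their likeness, over 24 libraries that share their groups.

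The genes next to Pbx3 did not share its pattern. Mapkap1, a subunit of the mTORC2 kinase complex that lies 33.6 kb away, had log2 fold changes of -0.14, 0.02, 0.26 and 0.13 in the VavCre Arid1b, VavCre Arid2, MxCre titled A2 and MxCre titled A1b sets. Mvb12b, a subunit of the ESCRT-I sorting complex at 283.5 kb on the other side, fell in VavCre Arid1b (-0.88, edgeR adjusted p = 0.0211) and was at -0.62, 0.32 and 0.13 in the other sets. Etaa1, a DNA replication stress gene and the nearest protein-coding gene before Meis1, at 925.9 kb, was between -0.16 and 0.31 with 0 calls by edgeR (smallest unadjusted p = 0.0569).

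Genes that work with the members were followed by list, and their counts by DESeq2, by voom and at an unadjusted p stand against the shares of all genes given above. Of 19 HOX genes of the A and B clusters, 12 could be tested. In the VavCre Arid1b set 1 was called higher, Hoxa2, an anterior HOX gene, from 2.72 to 8.17 CPM (log2 fold change 1.59, edgeR adjusted p = 0.0201). In the VavCre Arid2 set 0 passed by edgeR, but 7 were lower at an unadjusted p under 0.05, and DESeq2 called 6 and voom 8, all lower. Their median log2 fold change was -1.72 beside 0.00 over all genes, and groups did not overlap for 8 of 12. Hoxa10, a posterior HOX gene active in myeloid progenitors, was at 133 CPM in controls and 11.1 in floxed libraries there (-3.58, edgeR adjusted p = 0.0507), and Hoxa9 at 329 and 64.1 (-2.36, 0.0534). In that set, therefore, Hoxa9 and Pbx3 lay on opposite sides of their controls. Of the 12, 0 in the MxCre set titled A1b were called by edgeR, by DESeq2, by voom or at an unadjusted p under 0.05, the same being true of the MxCre set titled A2. Hoxa2 had the smallest p in the set titled A1b (-0.62, edgeR adjusted p = 0.399). Hoxa9 was at 217 CPM in controls and 193 in floxed libraries of that set (-0.17, edgeR adjusted p = 0.904), a gene named here for its link to the members.

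Among genes reported downstream of HOXA9 or MEIS1, 19 of 20 were tested. In the VavCre Arid1b set 2 fell, namely Kit, the stem cell factor receptor (log2 fold change -1.93, edgeR adjusted p = 0.0274), and Dach1, a transcriptional corepressor (-3.55, 0.0460). DESeq2 and voom each called 3 higher and 3 lower there, and at an unadjusted p under 0.05 there were 3 higher and 4 lower. In the other sets 0 passed by edgeR, where 4, 1 and 4 had an unadjusted p under 0.05 in VavCre Arid2, MxCre titled A2 and MxCre titled A1b, and DESeq2 called 3, 0 and 1. Voom called 7, 0 and 0 there. The 4 of 19 in VavCre Arid2 and in the set titled A1b compare with 19.5% and 17.4% of all genes at the same unadjusted p. The member with the smallest p in the MxCre set titled A1b was again Kit, at 137 CPM in controls and 39.6 in floxed libraries (-1.79, edgeR adjusted p = 0.118). In VavCre Arid2 it was Dach1 (-3.20, edgeR adjusted p = 0.102), and in the MxCre set titled A2 Hlf, a bZIP factor of stem cells (3.65, 0.340). The list's median was -0.45 in the MxCre set titled A1b beside 0.01 over all genes. In VavCre Arid1b, VavCre Arid2 and the MxCre set titled A2 it was 0.08, 0.2 and -0.01. Medians of the other lists in the set titled A1b were also below 0, so this was not particular to these genes. They were -0.48 for the HOX genes, -0.35 for the cofactors and targets of MLL fusions and -0.6 for the list of other TALE genes.

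Of 16 cofactors and other targets of MLL fusions, 13 were tested. Aff1, a scaffold of the elongation complex that MLL fusions recruit, fell from 352 to 135 CPM in VavCre Arid1b (-1.38, edgeR adjusted p = 0.00963), and 0 passed by edgeR in the other sets, where 2, 1 and 0 had an unadjusted p under 0.05, DESeq2 called 1, 0 and 0 and voom 3, 1 and 0. The smallest p in the MxCre set titled A1b was that of Kmt2a, the gene that MLL fusions derive from (-0.59, edgeR adjusted p = 0.292), and in VavCre Arid2 that of Men1, the menin tether of MLL (0.63, 0.169). Of 12 genes made up of other TALE genes and Pbxip1, which encodes a PBX-binding protein, 6 were tested and 0 passed by edgeR in each set, with 2, 2, 0 and 1 at an unadjusted p under 0.05, 1, 0, 0 and 0 called by DESeq2 and 2, 3, 0 and 1 by voom. Mkx, a TALE gene of tendon, had the smallest p in VavCre Arid1b (-4.71, edgeR adjusted p = 0.0778) and VavCre Arid2 (-3.64, 0.122), from mean control levels of 0.568 and 0.974 CPM.

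Markers of other cells differed between groups in several sets. In VavCre Arid2, where Pbx3 was higher in floxed libraries, sums of granulocytic and B lineage genes were lower and that of megakaryocyte genes higher. Sums of monocyte and macrophage, stromal and endothelial, erythroid, and T and NK genes overlapped between its groups. The summed level of 10 genes of granulocytic maturation was 4182 to 9579 CPM in its controls and 233 to 1027 in its floxed libraries, that of 7 B lineage genes 23.0 to 31.9 and 2.65 to 6.09, and that of 7 megakaryocyte genes 6.91 to 15.5 and 26.3 to 46.0. These sums in the MxCre set titled A1b overlapped between controls and floxed libraries, at 269 to 6667 and 2469 to 21380 CPM for granulocytic maturation, 18.6 to 46.3 and 29.5 to 67.1 for B lineage, and 6.41 to 33.9 and 5.32 to 48.3 for megakaryocytes. Each of these markers had counts in both groups of both sets, and their part in the levels of Pbx3 was not tested. Erythroid sums stood out in single floxed libraries of the MxCre sets. Floxed 2 of the set titled A1b was at 377 CPM beside 3.24 and 4.10 in its group, with controls at 2.27 to 50.3. Floxed 3 of the set titled A2, where Pbx3 was at 201 CPM, was at 568 beside 4.72 and 3.13, with controls at 3.83 to 7.24. Both libraries also had the highest granulocytic sums of their groups, at 21380 CPM beside 2469 and 5340 and at 11869 beside 4795 and 2828. The megakaryocyte sum was highest in floxed 3 of the set titled A2 (84.5 beside 6.28 and 18.3). In floxed 2 of the set titled A1b it was not (17.8 beside 5.32 and 48.3). The part of such cells in the Pbx3 levels of these libraries was not tested. Sums also separated where Pbx3 did not. In VavCre Arid1b, the set of the calls for Kit, Dach1, Aff1 and Hoxa2, monocyte and macrophage genes summed to 412 to 1023 CPM in controls and 1741 to 3378 in floxed libraries, and erythroid genes, with Car1 at 0 in controls, to 1.94 to 3.4 and 6.90 to 23.0. In the MxCre set titled A2 the B lineage sum was 39.7 to 47.5 CPM in controls and 9.65 to 32.1 in floxed libraries, and that of T and NK genes 9.84 to 12.9 and 21.4 to 83.2. Their part in the calls was not tested. Control 3 of VavCre Arid1b, with Pbx3 at 57.9 CPM, also lay apart from controls 1 and 2 in some sums. Markers of myeloid leukaemia cells summed to 13558 CPM there beside 4027 and 4063, and megakaryocyte genes to 9.54 beside 64.9 and 110. The part of these cells in its Pbx3 level was not tested. Of 10 stromal and endothelial genes, Emcn was at 0 in the floxed libraries of the MxCre set titled A1b, and the sums were 94.4 to 389 CPM in controls and 49.9 to 226 in floxed libraries.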

How the data were processed

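RNA-seq was measured in 24 libraries. Per the labels' protocols, RNA was extracted with TRIzol, selected on poly(A) beads and made into directional libraries. The aligner was STAR and the genome mm10, per the submitters' processing notes. Counter, annotation, strand setting, versions: not given in the sources used here. As deposited by the authors, the table holds raw counts, in whole numbers, under gene symbols, and 2194 of 24046 genes had no read.

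Groups follow the titles. The test was that of edgeR 4.0.16 (R 4.3.3). The filter filterByExpr, given the 8 groups (minimum count 10, total 15), left 14099 genes. All 24 libraries entered a robust quasi-likelihood fit with TMM scaling, 16 residual degrees of freedom and a common biological coefficient of variation of 0.4. Each set's floxed libraries were compared with its own controls, changes were compared between all pairs of sets, and controls of the same Cre with each other. P-values were adjusted by Benjamini-Hochberg over all genes tested, with a threshold of 0.05. DESeq2 1.42.0, voom with sample weights in limma 3.58.1, other scaling, no filter, a set alone, a replicate block, a term for Y-positive libraries and omitted libraries were alternatives. Homeobox stretches, positions and exon lengths (22804 genes) are from GENCODE M21. The procedure was tested on simulated data.

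The members, gene lists and alternatives were chosen with earlier results of these data known. All members were named. From each list up to 3 called members per set were named, or the member with the smallest p, except for a result that is not reported here. Genes like Pbx3 and Meis1 were the 3 with the highest r of log2 CPM, among genes averaging 1 CPM or more and without predicted genes, and their neighbours in the annotation were named.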

Additional observations from a re-analysis of the deposited data

Results flagged for a closer look

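The change of Pbx3 differed between sets by a test of the difference itself in 2 of 6 pairs. In the MxCre set titled A1b it was lower than in the VavCre Arid2 set by -5.99 on the log2 scale (edgeR adjusted p = 0.0162), with all 3 floxed libraries below their controls in the former and all 3 above them in the latter. Against the MxCre set titled A2 the difference was -5.11 (edgeR adjusted p = 0.0392). There the floxed libraries lay on both sides of their controls, at 17.2, 36.2 and 201 CPM, and the difference without the library at 201 CPM was -3.45 (0.0573).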

How the results depend on the processing

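The log2 fold change of Pbx3 in the MxCre set titled A1b was below 0 under all 14 alternatives. DESeq2 called it at -3.59 and the edgeR fit without 3 libraries that stand apart (control 3 of VavCre Arid1b, floxed 3 of the set titled A2, floxed 2 of the set titled A1b) at -3.42. Leaving out single libraries gave -3.82 to -3.43, called without floxed 1 only, the fit in which 1535 genes were called. With the replicate numbers as a block it was -3.60 (edgeR adjusted p = 0.297). Once group means were removed, 2 of 11 same-numbered pairs correlated over 0.1 (range -0.26 to 0.29), and 2 libraries correlated best with their own number. With groups of 3 this check cannot decide whether equal numbers mark paired samples. No result changed sign past the threshold in any alternative.

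Counts of called genes, which set the background, moved widely, and the cause was not tested. For VavCre Arid1b, 926 became 1815 with DESeq2, 4189 with voom, 1 with the block, 101 with the Y term and 62 to 734 without single libraries. For VavCre Arid2, 185 became 103 without the filter, 1030 with the set alone, 1095 with DESeq2, 4679 with voom, 3 with the block, 104 with the Y term, 1144 without the 3 libraries and 15 to 227 without single ones. For the MxCre set titled A2, 4 became 196 with DESeq2, 1202 with voom, 1 with the block, 0 with the Y term, 33 without the 3 libraries and 0 to 18 without single ones. For the MxCre set titled A1b, 1 became 0 without the filter or with the set alone, 478 with DESeq2, 12 with voom, 2 with the Y term, 8 without the 3 libraries and 0 to 1535 without single ones. Depth limits Meis2 and Meis3, with 33 and 466 counts in all.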
